A study of Saccharomyces cerevisiae with 36 samples.

Results

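The yeast genes RPL20B, RPL42B, RPS8B and HNT1 were taken out of the 223 genes read as having introns on a splicing microarray. They were chosen among those whose intron index was called lower in at least 1 splicing mutant than in wild type. On the array 21 introns met this, so these 4 genes are not the full set. Each of the 4 genes has a junction, an intron and an exon probe on the array, which covers 230 introns. The intron index is the log2 ratio (mutant over wild type) of the intron probe minus that of the exon probe on the same array, so that a positive value means more intron signal per exon signal in the mutant. Over 71 combinations of gene and mutant with both arrays measured, the index was lowered in 10, which are the calls that chose the genes, and raised in 28. Over the whole array, 0.784% of 3697 intron indices were lowered and 49.6% raised when the 18 mutants were pooled.

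Budding yeast genes rarely carry introns, and the intron-containing genes are enriched for those of ribosomal proteins, many of which exist as A and B copies. Splicing begins when the U1 snRNP pairs with the start of the intron, helped by the cap-binding complex and by Mud2 near the branch point, and goes on through the U2 snRNP and the U4/U6.U5 tri-snRNP to a pair of chemical steps. The excised intron is released as a lariat, which the Dbr1 enzyme opens, and unspliced transcripts that reach the cytoplasm can be destroyed by nonsense-mediated decay. RPL20B and RPL42B encode proteins of the large ribosomal subunit and RPS8B a protein of the small subunit. HNT1 encodes an enzyme of the histidine triad family that interacts with the kinase Kin28 of the transcription factor TFIIH.

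RNA of 18 mutants was compared with wild-type RNA on 36 2-colour arrays, 2 per mutant, with the channels exchanged between both arrays. The U1 snRNP mutants were mud1 and nam8, and the cap-binding complex mutants were gcr3 (the gene is also called STO1, large subunit) and mud13 (small subunit). Strain mud2 lacks the branch point factor, cus2 and msl1 lack proteins that act with or in the U2 snRNP, and snu17 lacks a protein of the RES complex. Strain brr1 lacks a factor of snRNP biogenesis, snu66 a tri-snRNP protein, snu40 a protein associated with the U5 snRNP, and ecm2 a factor of the active spliceosome. Strains prp17 and prp18 lack factors of the second chemical step, upf3 a factor of nonsense-mediated decay, and hsp104 a protein disaggregase. These deletion strains were grown at 26 °C against wild type BY4741, while dbr1 was a mixture of RNA from haploid and diploid cells, in growth and in sporulation, against a wild type that the labels do not name further. In dbr1 a change per cell and a change in the mix of cells cannot be told apart. The allele prp4-1a, a temperature-sensitive form of a U4/U6 snRNP protein, and its own wild type SS330 were moved from 26 °C to 37 °C for 2 h, so that both carried the heat shift. Nothing in the labels tells whether a mutant's pair of arrays held separate cultures or 1 RNA extract. The p-values thus rest on a spread between arrays that may be technical. Each gene has 1 such spread, pooled over all mutants. For the intron index, the distance between a mutant's arrays, as a median over introns, was 4.3 times that of the median mutant in prp4-1a. It was 2.2 times in mud13 and 1.9 in dbr1, but 0.55 in mud1 and 0.61 in prp17. The SE of a gene does not follow these differences.

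The probe roles are likely rather than stated, being read from the order of neighbouring probes, and the direction of the deposited ratio, channel 2 over channel 1, is also the likely one. The exon probe of MUD1 averaged −2.56 ± 0.10 log2 in mud1 (SD, n = 2 arrays) against −0.73 to 0.36 in the other mutants. The exon probe of STO1 averaged −5.59 ± 0.31 log2 in gcr3 (SD, n = 2 arrays) against −1.25 to 0.87 in the others, so both deleted genes were low under that direction. Arrays with the mutant in channel 2 correlated below −0.3 over probes for prp4-1a with cus2 (r = −0.40), hsp104 (r = −0.43) and nam8 (r = −0.36). The same held for hsp104 with snu17 (r = −0.36). Reversing the direction turns both arrays of such a pair. These correlations then stay the same, so they cannot decide between the directions. Under the opposite direction every value below changes its sign, and the 10 lowered and 28 raised indices become 10 raised and 28 lowered. Each array had 2127 to 2792 usable spots out of 2896 with a gene symbol.

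RPL20B was the intron lowered in the most mutants. Its index lay below wild type in gcr3, prp17, mud2, nam8, mud13 and mud1, which are 6 of 18 mutants. Of the 21 introns lowered anywhere on the array, 3 others were lowered in 2 mutants and the rest in 1. These calls chose the gene, and the values in these mutants are therefore given as a description without a test. The calls in gcr3, prp17 and mud2 were kept under each alternative tried. Those in mud1 and nam8 were lost under several, among them those with no replicate block (no dye term), with hsp104 as the reference, with either array alone and at an adjusted p under 0.01. The call in mud13 was lost with hsp104 as the reference, with arrays weighted by mutant, with zeros kept as values and with the mutant-in-channel-1 arrays left out, where it was −0.29.

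In gcr3 the RPL20B index was −1.18 on the mutant-in-channel-2 array and −1.02 on the other, a mean 2.14-fold lower intron signal per exon signal. It was −0.86 and −0.98 in prp17, and −0.82 and −0.81 in mud2. These 6 arrays lay close together and all below 0. In nam8 the arrays gave −0.69 and −0.52, in mud13 −0.35 and −0.83, and in mud1 −0.61 and −0.47. The arrays of mud13 stood furthest apart, and none of these 6 reached 0. The share of introns lowered was 1.87% in gcr3, 5.80% in prp17, 1.40% in mud2, 0.455% in nam8, 0.465% in mud13 and 1.42% in mud1. RPL20B held the lowest index of all introns measured in nam8 (of 220), mud13 (of 215) and mud2 (of 215), and the second lowest in gcr3 (of 214) and prp17 (of 207).

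In the same strains, the index was raised for 66.4% of introns in gcr3, 50.2% in mud13, 43.3% in mud2, 30.9% in prp17, 25% in mud1 and 4.55% in nam8. The median index over all introns was 0.75 in gcr3, 0.46 in mud13, 0.41 in mud2, 0.26 in prp17, 0.18 in mud1 and 0.04 in nam8. RPL20B lay 1.86 below the median of its mutant in gcr3, 1.22 below it in mud2 and 0.65 below it in nam8.

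Outside these 6 mutants the RPL20B index rose in 6 others and was not called in 6. In prp4-1a it was 4.30 and 3.48, and rose by 3.89 ± 0.18 (log2, SE, limma adjusted p = 2.7e-17), a 14.8-fold change. In dbr1 it was 2.18 and 3.07, and rose by 2.62 ± 0.18 (limma adjusted p = 2.2e-13). The smaller rises were 0.82 ± 0.18 in snu17, 0.78 ± 0.18 in upf3, 0.61 ± 0.18 in brr1 and 0.41 ± 0.18 in snu66, the last of these with a limma adjusted p of 0.036. Indices were raised for 97.2% of introns in prp4-1a, 82.0% in dbr1, 94.2% in snu17, 36.7% in upf3, 94.3% in brr1 and 92.6% in snu66, so the RPL20B calls in prp4-1a, snu17, brr1 and snu66 were those of nearly every intron. In upf3 its index stood above the median of all introns, 0.35, whereas in brr1 (median 1.25) and snu66 (median 1.25) it stood below it. In prp18, where the median over introns was 0.83, the RPL20B index was −0.23 and 0.05, a difference of −0.09 ± 0.18 that was not called. The index of msl1 was 0.36 ± 0.18 (limma adjusted p = 0.061), and those of snu40, hsp104, ecm2 and cus2 ranged between 0.06 and −0.29 without a call. Ordered from the lowest, the mutants ran gcr3, prp17, mud2, nam8, mud13, mud1, cus2, prp18, ecm2, hsp104, snu40, msl1, snu66, brr1, upf3, snu17, dbr1 and prp4-1a. Of the 17 gaps between neighbours in that order, 10 were wider than the SD between arrays of either neighbour. The neighbours nam8, mud13 and mud1 were not separated in this way, nor were upf3 and snu17.

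**Figure D1:**
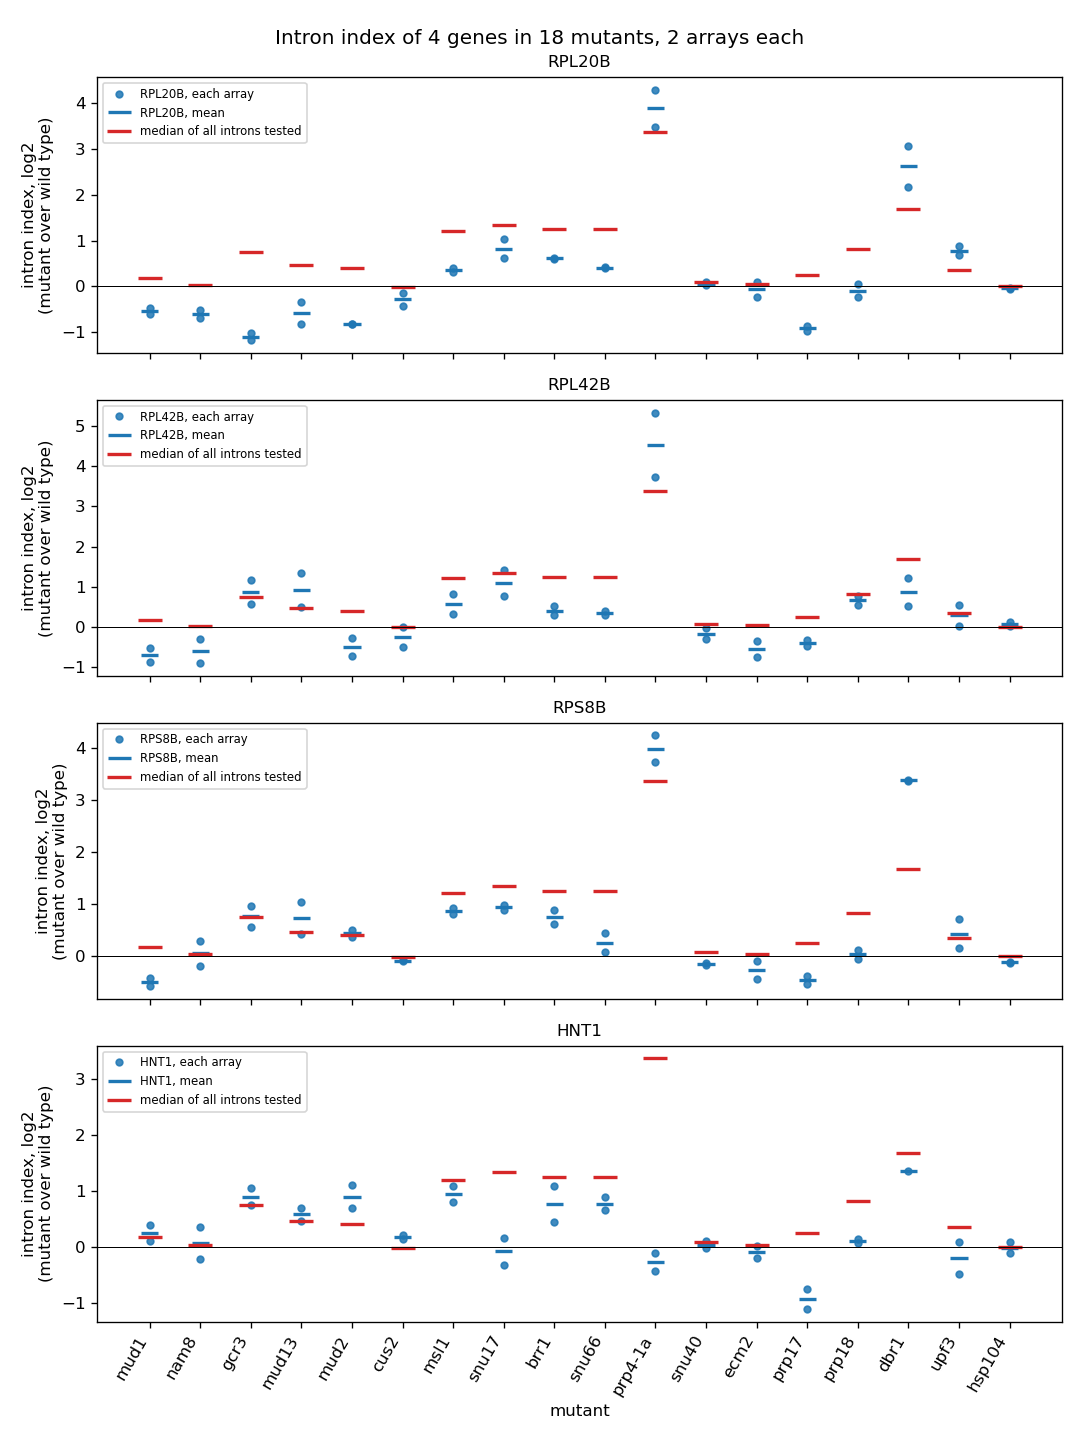
Intron index (log2, mutant over wild type) of RPL20B, RPL42B, RPS8B and HNT1 in 18 mutants, with a point per array, a blue bar for the mean of both arrays (1 array for HNT1 in dbr1), and a red bar for the median over all introns tested in that mutant. RPL20B sits below 0 on both arrays of gcr3, prp17, mud2, nam8, mud13 and mud1, while the medians of these mutants lie between 0.04 and 0.75.

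Read singly with ratios as deposited, the intron probe carried the low RPL20B index in gcr3, mud13, mud2 and prp17. It gave −1.25 and −1.06 log2 in gcr3, −1.04 on average in prp17, −0.87 and −0.84 in mud2, and −0.72 and −0.86 in mud13. The exon probe was closer to 0 in the same mutants. Its fitted differences were −0.06 ± 0.11 in gcr3, −0.11 ± 0.11 in prp17, −0.04 ± 0.11 in mud2 and −0.20 ± 0.11 in mud13. The mud13 arrays gave −0.37 and −0.03. Medians for ribosomal protein genes in gcr3, prp17, mud2 and mud13 were −0.42, −0.33, −0.06 and −0.39 for exon probes. For intron probes they were 0.38, −0.17, 0.23 and 0.31. Against these medians the RPL20B intron probe was lower in each mutant, and the exon probe was higher in gcr3, prp17 and mud13. In mud1 and nam8 the intron probe was −0.38 ± 0.17 in each, and the exon probe was 0.16 ± 0.11 in mud1 and 0.23 ± 0.11 in nam8. Part of the low index thus came from each probe. The exon probes of ribosomal protein genes had medians of 0.22 in mud1 and 0.24 in nam8, so the RPL20B exon values were near those of such probes. The RPL20B exon probe fell in prp4-1a, by 1.82 ± 0.11 log2 (limma adjusted p = 1.7e-14), and in upf3, by 0.37 ± 0.11 (limma adjusted p = 0.018), as did 76.2% of exon probes in prp4-1a and 21.2% in upf3. In prp4-1a the intron probe at the same time rose by 2.06 ± 0.17 log2 (limma adjusted p = 6.9e-13). Over the array, 24.0% of exon probe values were lowered and 4.70% raised, and 2.58% of intron probe values were lowered and 46.2% raised, with the 18 mutants pooled. For the 4 genes together, 14 of 71 exon probe values were lowered and 4 raised, and 7 of 72 intron probe values were lowered and 26 raised, and 6 of the 7 lowered intron probes belong to contrasts that chose the gene. Array medians over spots with a symbol ran from −0.29 to 0.54 log2 and were kept as deposited. With each array centred on exon and intronless probes, 5 exon probe values of the 4 genes were lowered and 11 raised.

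The junction probe of RPL20B gave a usable value on 14 of 144 spots, and its fit had no residual degrees of freedom, so no junction index was tested. Both arrays were measured in prp4-1a alone, from 1 spot each, where the junction probe was at 1.89 and 0.95 log2 and the junction index (junction minus exon probe) at 3.62 and 2.86. Among junction probes tested in prp4-1a, 82.3% of 215 were lowered and the median was −1.77. What the RPL20B junction probe detected was not tested. Its exon probe may also bind transcripts of the RPL20A copy, which is not analysed here, and the share of each copy in the exon signal was not tested.

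**Figure D2:**
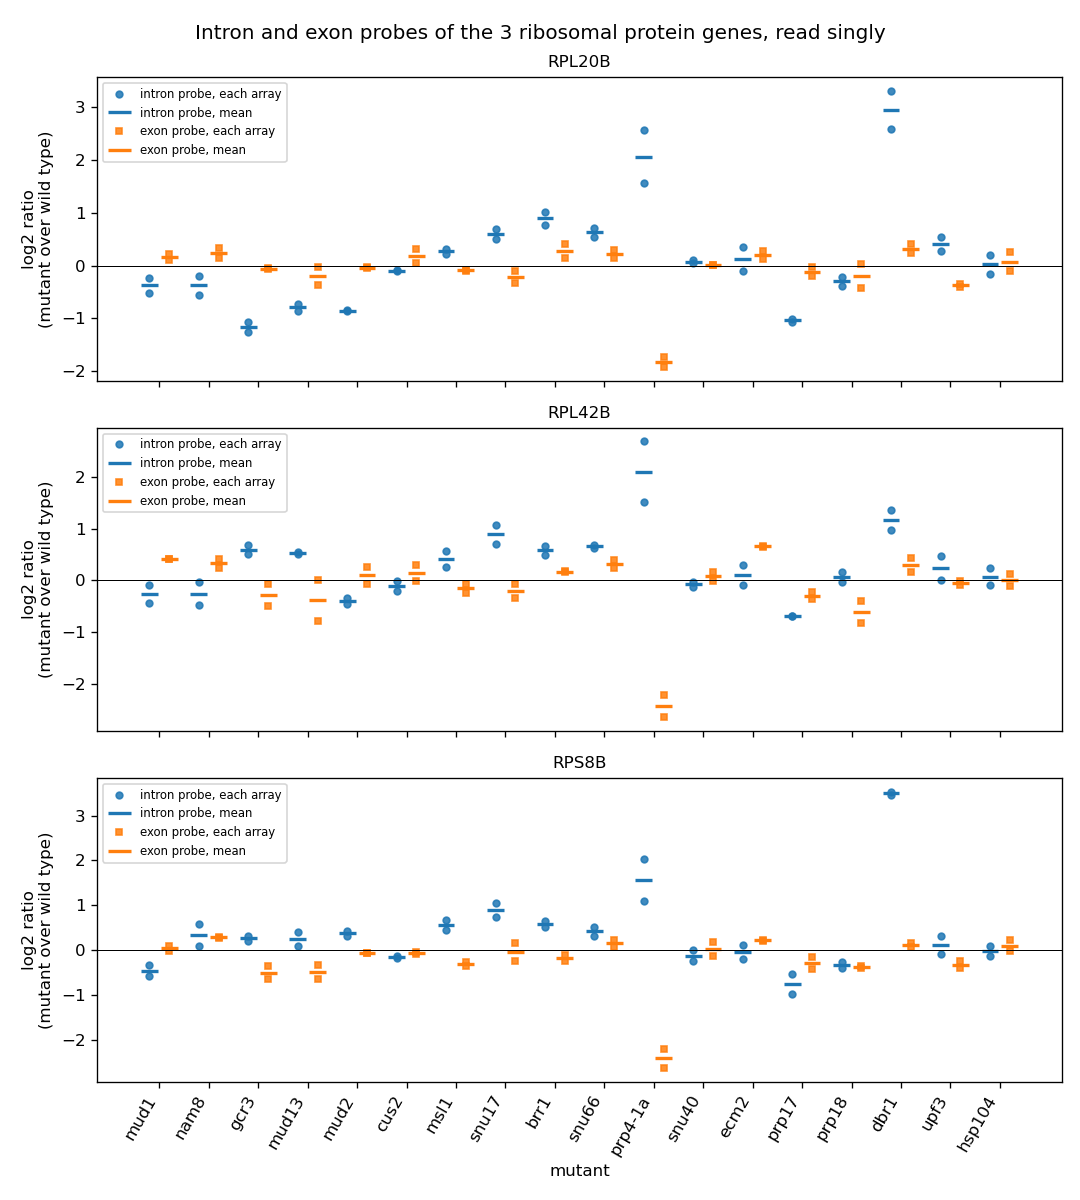
Log2 ratio (mutant over wild type) of the intron probe (blue) and the exon probe (orange) of RPL20B, RPL42B and RPS8B in 18 mutants, with a point per array and a bar for the mean. For RPL20B the intron probe lies below −0.7 on both arrays of gcr3, mud13, mud2 and prp17, with the exon probe closer to 0. For all 3 genes the exon probe is at its lowest in prp4-1a.

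RPL42B was lowered in mud1 alone, where its index was −0.86 and −0.51, the lowest of 212 introns. That contrast chose the gene. The intron probe gave −0.44 and −0.09 log2 there and the exon probe 0.42 on both arrays. The probes held about equal parts of the difference on the first array, and the exon probe held more on the second. Exon probes of ribosomal protein genes had a median of 0.22 in mud1. Low values without a call were found in nam8 (−0.59 ± 0.26, limma adjusted p = 0.26), ecm2 (−0.55 ± 0.26, limma adjusted p = 0.45), mud2 (−0.49 ± 0.26, limma adjusted p = 0.12) and prp17 (−0.40 ± 0.26, limma adjusted p = 0.24). All 8 arrays of these 4 mutants were below 0. The SE of RPL42B, 0.26, was the widest of the 4 genes, against 0.18 for RPL20B and 0.17 for RPS8B and HNT1. This SE is shared by all mutants, and the RPL42B arrays lay furthest apart in prp4-1a (5.32 and 3.72). In an alternative fit without prp4-1a and dbr1, nam8, ecm2 and mud2 were called as lowered too. When arrays were weighted by the spread of their mutant, another alternative, nam8, ecm2, mud2 and prp17 were so called. The RPL42B intron probe itself fell in prp17, by 0.69 ± 0.17 log2 (limma adjusted p = 0.0020), as did 17.2% of the intron probes tested there, 32 of 99 from ribosomal protein genes among them. The intron probe of RPL42A was lowered in prp17 as well (−0.48 ± 0.16, limma adjusted p = 0.018).

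The RPL42B index rose in 7 mutants. In prp4-1a it was 5.32 and 3.72, and rose by 4.52 ± 0.26 (limma adjusted p = 1.5e-15), with the exon probe lower by −2.42 ± 0.15 log2 and the intron probe higher by 2.10 ± 0.17. In the cap-binding strains it was 0.58 and 1.16 in gcr3 and 1.33 and 0.49 in mud13, and rose by 0.87 ± 0.26 and 0.91 ± 0.26 (limma adjusted p of 0.0043 in gcr3 and 0.0048 in mud13). These are the strains in which the RPL20B index was low, and the raised share of introns was 66.4% in gcr3 and 50.2% in mud13. The other rises were 1.10 ± 0.26 in snu17, 0.87 ± 0.26 in dbr1, 0.66 ± 0.26 in prp18 and 0.57 ± 0.26 in msl1, with 74.9% of introns raised in prp18 and 94.3% in msl1. In mud13 the exon probe was −0.78 on 1 array and 0.01 on the other, and the intron probe 0.55 and 0.50, so the arrays differed in the exon signal. With the mutant-in-channel-2 arrays left out, the RPL42B index in mud13 was 0.37 and not called. Among the ordered mutants, 2 of 17 neighbouring gaps were wider than either SD: that between snu40 and hsp104 and that between snu17 and prp4-1a.

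For RPS8B, the reading of a probe as the intron probe rests on the order of probes and the annotation's symbol alone. Whether RPS8B has an intron there, and whether the probe's target lies in it, is in doubt and was not settled here. The intron index of RPS8B compares the probes so labelled and holds in that sense alone. RPS8B was lowered in mud1, with indices of −0.58 and −0.43, and in prp17, with −0.54 and −0.37. Both contrasts chose the gene. In prp17 the intron probe was −0.97 and −0.54 log2 and the exon probe −0.43 and −0.16, so both probes were low and the intron probe more so. In mud1 the exon probe was −0.01 and 0.10, and the intron probe −0.59 and −0.33.

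The RPS8B index rose in 9 mutants. In prp4-1a it was 4.25 and 3.73, and rose by 3.99 ± 0.17 (limma adjusted p = 5.3e-18). In dbr1 it was 3.37 and 3.39, and rose by 3.38 ± 0.17 (limma adjusted p = 2.0e-16), where the intron probe alone stood 3.50 ± 0.16 log2 above wild type and the exon probe was not called (0.12 ± 0.11). The dbr1 index was above the median of all introns, 1.68. Smaller rises were 0.94 ± 0.17 in snu17, 0.87 ± 0.17 in msl1, 0.76 ± 0.17 in gcr3, 0.75 ± 0.17 in brr1, 0.74 ± 0.17 in mud13, 0.44 ± 0.17 in mud2 and 0.44 ± 0.17 in upf3, with 43.3% of introns raised in mud2. The mud13 arrays stood at 1.05 and 0.42 and those of upf3 at 0.17 and 0.71. With the arrays of the higher value's orientation left out, the index was 0.38 in mud13 and 0.18 in upf3, and neither was then called. The exon probe of RPS8B fell in 6 mutants in which its index was not chosen by the rule: prp4-1a (−2.42 ± 0.11), gcr3 (−0.50 ± 0.11), mud13 (−0.49 ± 0.11), prp18 (−0.37 ± 0.11), upf3 (−0.33 ± 0.11) and msl1 (−0.31 ± 0.11). Exon probes were lowered widely in these mutants: 76.2% of those tested in prp4-1a, 50% in gcr3, 44.4% in mud13, 44.8% in prp18, 21.2% in upf3 and 41.0% in msl1. In gcr3 and mud13 the RPS8B intron probe was not called (0.26 ± 0.16 and 0.25 ± 0.16 log2). In the order of mutants, 4 of 17 neighbouring gaps were wider than either SD.

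RPL42A, the other copy of RPL42B, has probes of its own on the array, and the index of RPL42B minus that of RPL42A on the same array was tested over 42 pairs of ribosomal protein gene copies. RPL42B lay below RPL42A in most strains where the copies differed. In dbr1 the RPL42A index was 1.76 and 2.80 and that of RPL42B 0.52 and 1.21, a difference of −1.41 ± 0.14 (limma over copy pairs, adjusted p = 1.7e-09). In gcr3 RPL42A was at 1.37 and 1.88, against which RPL42B was lower by −0.75 ± 0.14 (limma adjusted p = 5.9e-05). RPL42B minus RPL42A was also lowered in upf3 (−0.55 ± 0.14), mud13 (−0.42 ± 0.14), brr1 (−0.37 ± 0.14) and snu66 (−0.37 ± 0.14), and raised in prp4-1a (0.58 ± 0.14, limma adjusted p = 0.0013). The mud13 difference was −0.03 on 1 array and −0.80 on the other, and without the second of these it was 0.0024. In mud1, which chose RPL42B, the difference was −0.45 and −0.38, and RPL42A was not called (−0.27 ± 0.27). The difference was thus lowered in 6 of 18 mutants and raised in 1, against 16.3% lowered and 16.3% raised over all copy pairs. The symbols are those of the array's annotation, and no genome was used here. Probes of near-identical copies may bind both transcripts, and the extent of this was not tested.

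**Figure D3:**
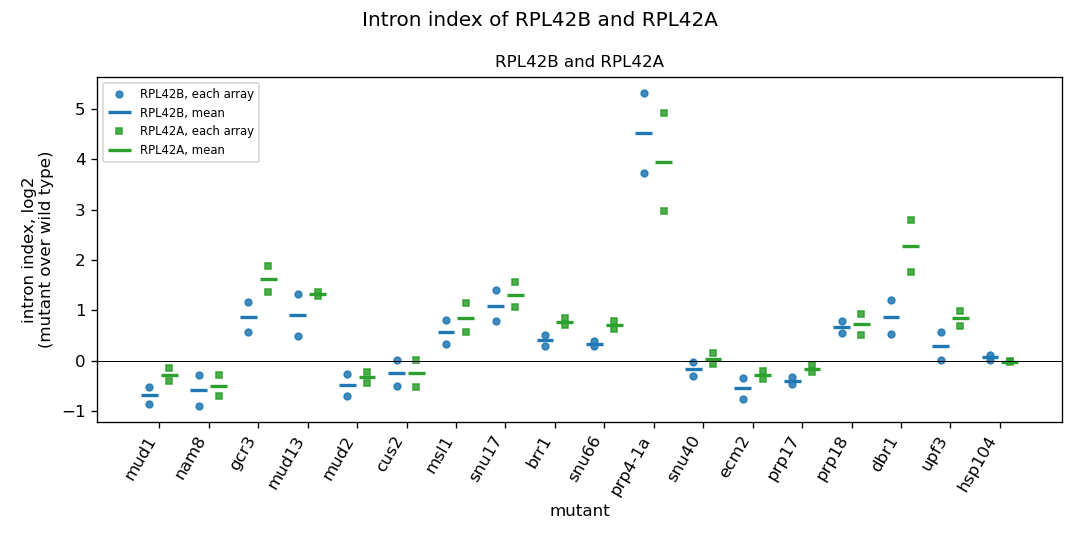
Intron index (log2, mutant over wild type) of RPL42B (blue) and RPL42A (green) in 18 mutants, with a point per array and a bar for the mean. RPL42B lies below RPL42A on both arrays of dbr1 and gcr3.

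HNT1 was lowered in prp17, with indices of −1.11 and −0.75, the lowest of 207 introns there. That contrast chose the gene. Its intron probe, averaged over all spots, was −0.60 and −0.24 log2 and its exon probe 0.51 and 0.50, so both contributed to the difference. With all spots averaged, the index rose in 6 mutants, by 0.95 ± 0.17 in msl1, 0.90 ± 0.17 in gcr3, 0.90 ± 0.17 in mud2, 0.78 ± 0.17 in snu66, 0.77 ± 0.17 in brr1 and 0.59 ± 0.17 in mud13. In prp4-1a it was −0.10 and −0.43, and the difference of −0.26 ± 0.17 was not called (limma adjusted p = 0.14), although 97.2% of introns were raised there with a median of 3.38. In dbr1 the exon probe was missing on 1 array, and no test was made.

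The averaged HNT1 value combined spots that disagreed. Each probe was printed at 4 positions, here taken as pair 1 and pair 2. For the HNT1 intron probe the values of the pairs correlated at r = −0.57 over 35 arrays, and r was −0.31 over 33 arrays without prp4-1a. It was the only probe below 0 among 691 compared, whose median r was 0.96, and the next lowest was 0.45. Within each pair the spots followed each other, at r = 0.90 in pair 1 and 0.89 in pair 2. The median SD between HNT1 intron spots on an array was 0.76 log2, against 0.16 for RPL20B, 0.12 for RPS8B and 0.10 for RPL42B. These correlations are descriptions over arrays that share strains and annotations.

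In prp4-1a, pair 1 gave 3.44 and 3.06 log2 and pair 2 gave −2.36 and −2.22. In gcr3, pair 1 gave 2.00 and 1.88, and pair 2 gave −0.70 and −1.06. Pair 1 was the higher on 29 of 35 arrays, and the pairs had opposite signs on 21 of them. In an index by 1 pair alone, the intron spots of that pair were set against the exon probe averaged over all its usable spots. Leaving out prp17, which chose the gene, the HNT1 index by pair 1 alone rose in 9 of 15 mutants tested. By pair 2 alone it was lowered in 6 of 16 and raised in 0 (limma, and 0 also at an unadjusted p under 0.05). The share of all introns raised by pair 2 alone is not given here. Over all introns and mutants, 48.6% were raised by pair 1 alone and 0.877% lowered by pair 2 alone. In prp4-1a the index was 2.51 ± 0.19 by pair 1 and −3.03 ± 0.14 by pair 2. In prp17 the index was below 0 by both pairs, at −0.68 by pair 1 and −1.12 by pair 2. The intron spots there gave −0.36 and 0.01 log2 in pair 1 and −0.72 and −0.50 in pair 2. The exon probe was at 0.51 and 0.50, so by pair 1 it held more of the difference. In prp4-1a, gcr3, mud13, prp18 and snu17 the averaged HNT1 index joined a raised index of pair 1 and a lowered index of pair 2. The exon probe gave values from pair 2 alone, with 68 usable spots out of 144. Which transcript each pair detected was not tested.

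**Figure D4:**
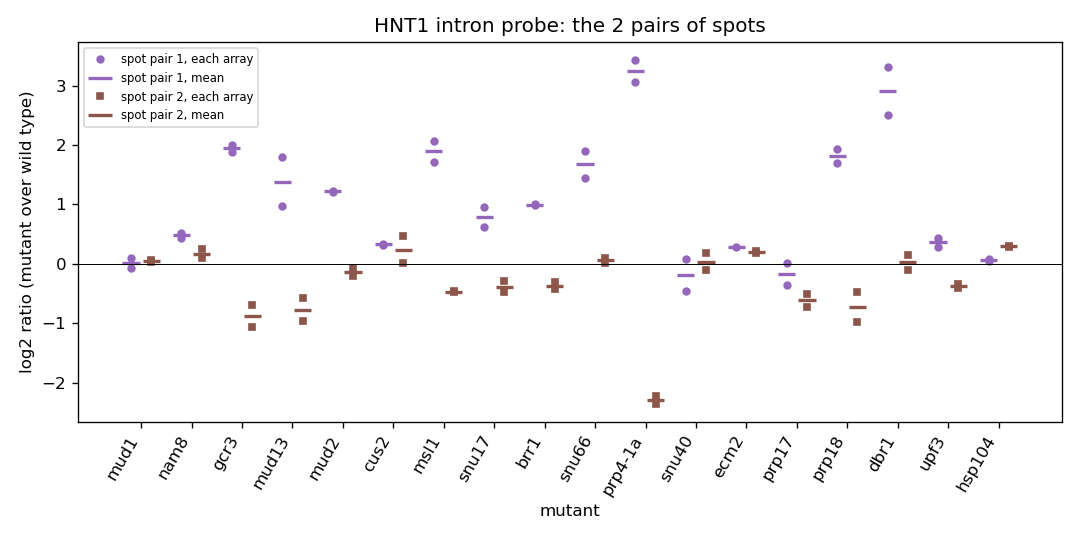
Log2 ratio (mutant over wild type) of the HNT1 intron probe in 18 mutants, shown for spot pair 1 (purple) and spot pair 2 (brown), with a point per array and a bar for the mean (ecm2 has 1 array for pair 1). Pair 1 is above 3 and pair 2 below −2.2 on both prp4-1a arrays, while in prp17 the means of both pairs are below 0.

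The other HNT1 probes had spots that followed each other in the junction probe (r = 0.89 between pairs) and could not be compared in the exon probe. The exon probe rose in prp4-1a (0.74 ± 0.13 log2, limma adjusted p = 1.2e-05) and prp18 (0.43 ± 0.13, limma adjusted p = 0.0062), where the exon probes of the 3 ribosomal protein genes were lower or not called, and it fell in brr1 (−0.57 ± 0.13) and gcr3 (−0.37 ± 0.13). Exon probes were raised for 8.07% of those tested in prp4-1a and 19.3% in prp18, and lowered for 40.7% in brr1 and 50% in gcr3. The junction index of HNT1 fell in prp4-1a, to −1.15 and −0.95 (−1.05 ± 0.11, limma adjusted p = 1.3e-08), in gcr3 (−0.39 ± 0.11) and in msl1 (−0.37 ± 0.11). For RPL42B the junction index fell in prp4-1a by 0.67 ± 0.20 (limma adjusted p = 0.0051), with arrays at −1.46 and 0.12, and for RPS8B it was called in no mutant. Over the 3 genes with a usable junction probe, 4 of 53 junction indices were lowered and 0 raised (limma; 0 also at an unadjusted p under 0.05), against 8.35% lowered and 1.42% raised over all junctions.

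KIN28, the kinase gene whose product interacts with the HNT1 protein, had an index that rose in 9 of 18 mutants, among them prp17 (1.34 and 1.45) and prp18 (1.14 and 1.85). Its index over mutants correlated with that of HNT1 at r = −0.17 (17 mutants). As a description over fitted indices, the introns most like HNT1 were those of TDA5 (r = 0.79, 16 mutants), RBS1 (r = 0.69, 17 mutants) and SPT14 (r = 0.66, 15 mutants), against a median r of 0.06 over 191 introns. The HNT1 index is the average over both spot pairs in these correlations. Without prp4-1a and dbr1 the median r rose to 0.42 over 195 introns. HNT1 was then most like SPT14 (r = 0.85, 14 mutants), YML6 (r = 0.81, 13 mutants) and TDA5 (r = 0.79, 16 mutants), and r with KIN28 was −0.04. The spot pairs of the TDA5 intron probe correlated at r = 0.59 over 29 arrays, also among the lowest.

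The likeness of the 3 ribosomal protein genes to other introns was measured in the same way, and the median r over 193 introns was 0.76 for RPL20B, 0.77 for RPL42B and 0.81 for RPS8B. RPL20B was most like RPL23A (r = 0.96), RPL2B (r = 0.96) and RPL6B (r = 0.92) over 18 mutants. RPL42B was most like RPL26A (r = 0.96), RPL19B (r = 0.95) and RPL34A (r = 0.95), and RPS8B most like RPL34A (r = 0.97), RPL29 (r = 0.97) and RPS24A (r = 0.97). The lowest r for all 3 was that of YBR219C, at −0.21 with RPL20B, −0.34 with RPL42B and −0.15 with RPS8B. The points share arrays, and prp4-1a and dbr1 lie far from the rest. Without those mutants, RPL20B was most like RPS25A (r = 0.83) and RPL23A (r = 0.83), RPL42B most like RPL42A (r = 0.96), and RPS8B most like RPS11B (r = 0.90).

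The index of 99 ribosomal protein introns is described next for the mutants in which these genes were lowered. In gcr3, 69 of 99 rose and 2 were lowered, with a median of 0.88 against 0.75 over all introns. In prp17, 16 of 99 rose and 9 were lowered, with a median of 0.15 against 0.26. The large subunit introns had a median of 0.08 and the small subunit introns of 0.26 there. In mud1, 1 of 98 rose and 3 were lowered, with a median of −0.03 against 0.18, and those 3 were RPL20B, RPL42B and RPS8B. In mud2, 30 of 99 rose and 3 were lowered, with a median of 0.36 against 0.41. In mud13, 61 rose and 1 was lowered, with a median of 0.66 against 0.46. In nam8, 1 of 99 was lowered, with a median of −0.13 against 0.04. Of the 21 introns lowered in at least 1 mutant, 13 belonged to ribosomal protein genes, out of 99 such introns among 222 in the fit.

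Contrasts between mutants that share a complex gave the following for combinations that did not choose a gene. HNT1 values in these contrasts average all spots. So read, the index of all 4 genes was higher in msl1 than in cus2, as for 89.3% of introns. The difference was 0.64 ± 0.26 for RPL20B, 0.81 ± 0.37 for RPL42B, 0.96 ± 0.24 for RPS8B and 0.77 ± 0.24 for HNT1 (limma adjusted p of 0.021, 0.039, 0.00086 and 0.0055 in that order). By pair 1 alone the HNT1 index was 2.16 in msl1 and 0.25 in cus2. By pair 2 alone it was −0.20 in msl1 and 0.16 in cus2, the other way round. In prp4-1a minus snu66 the 3 ribosomal protein genes were higher, by 3.48 ± 0.26 for RPL20B, 4.18 ± 0.37 for RPL42B and 3.73 ± 0.24 for RPS8B, as for 87.9% of introns. HNT1 was lower by −1.04 ± 0.24 with all spots averaged, but its spot pairs went opposite ways. By pair 1 alone its index was 2.51 in prp4-1a and 1.70 in snu66. By pair 2 alone it was −3.03 in prp4-1a and 0.08 in snu66. In prp17 minus prp18, RPL42B was lower by −1.06 ± 0.37 (limma adjusted p = 0.027), as were 35.9% of introns. Between gcr3 and mud13 no difference was called for RPL42B (−0.04 ± 0.37), RPS8B (0.03 ± 0.24) or HNT1 (0.31 ± 0.24), and RPL20B, chosen in both, was −0.51 ± 0.26. Between mud1 and nam8, HNT1 was not called (0.18 ± 0.24).

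The introns next to the threshold for a lowered index were as follows. In mud1, RPL42B lay just inside it (−0.69 ± 0.26) and RPL18B just outside (−0.55 ± 0.21). In nam8, RPL20B lay just inside (−0.61 ± 0.18) and RPS27A just outside (−0.47 ± 0.17), and in mud13, RPL20B (−0.59 ± 0.18) and RPS14B (−0.32 ± 0.14), which lay further apart than the SE of either. In mud2, RPS25A (−0.47 ± 0.19) lay just inside and RPL42B (−0.49 ± 0.26) just outside. In prp17 they were RPS9A (−0.44 ± 0.17) and RPL18B (−0.50 ± 0.21), and in gcr3 the second introns of EFM5 (−0.39 ± 0.17) and SRC1 (−0.38 ± 0.18). RPL42B is thus listed as lowered in mud1 and not in mud2 or nam8 with values that differ by less than its SE.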

How the data were processed

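The values are the log2 ratios of both channels deposited by the authors, 1 per spot and array. No source used here tells how scans became ratios. For base 2, differences between recurring values within an array were examined: 247 of 1562 lay within 3e-09 of the logarithm of a quotient of whole numbers no larger than 400, against 0 to 5 at other bases. Spots of exactly 0 were treated as missing, usable spots of a probe (4 per array) were averaged, and the labelled channel set the sign so that positive means higher in the mutant. Gene symbols came from the platform annotation (724 probes with 1 symbol, 140 with none and 0 with several).

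All 36 arrays entered 1 limma fit (limma 3.58.1, R 4.3.3; lmFit and eBayes) over all introns, junctions or probes, with a coefficient per mutant, a common dye term and a requirement for both arrays of a mutant. Benjamini-Hochberg adjustment ran over all features of 1 measure in 1 mutant, with calls at 0.05. Errors of differences are SE from this fit. The number of arrays, 2 per mutant, limits the precision. The procedure was tested on simulated data. The members and lists were chosen with earlier results of these data known, and contrasts that chose a gene are given without a test. Genes were named by rule: the 4 genes, their copies, KIN28, the 3 most and 1 least correlated introns, and those next to the threshold; 1 comparison of copies and 1 least correlated intron are not reported here; the likeness without prp4-1a and dbr1 was added after seeing the data. Replicate 1 always carried the mutant in channel 2, so the dye term is also the replicate block.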

Additional observations from a re-analysis of the deposited data

How the results depend on the processing

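The 10 lowered indices included 5 that were lost with no replicate block (no dye term) and 5 lost at an adjusted p under 0.01, which left 5 in each case. Those lost were RPL20B in mud1 and nam8, RPL42B in mud1 and RPS8B in mud1 and prp17. RPL20B in gcr3, mud2 and prp17 and HNT1 in prp17 were lowered under each of the 13 alternatives for the index. With hsp104 as the reference 4 lowered indices were left, and with either array of each mutant alone 4 to 6 were lowered and 17 to 20 raised. With spot pair 1 alone, chosen after seeing the data, 6 were lowered, and with spot pair 2 alone 14. The count was 13 in the deletion strains alone, with RPL42B added in ecm2, mud2 and nam8, and 13 when each array was weighted by its mutant's own spread, with RPL42B added in ecm2, mud2, nam8 and prp17 and RPL20B in mud13 lost. The HNT1 index reversed with spot pair 2 alone in gcr3 (−0.51), msl1 (−0.20), mud13 (−0.48) and prp18 (−1.16), and with spot pair 1 alone in prp4-1a (2.51) and snu17 (0.60).

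The 4 lowered junction indices became 2 with no replicate block, 2 with hsp104 as the reference, 2 at an adjusted p under 0.01, 22 when each array was weighted by its mutant's own spread, 7 in the deletion strains alone (2 in the same strains of the full fit) and 2 to 3 with 1 array per mutant. The 0 raised junction indices became 1 with no replicate block, 1 with zeros kept as values and 0 to 1 with 1 array per mutant. The 7 lowered intron probes became 14 when arrays were weighted this way, 14 in the deletion strains alone and 16 with spot pair 2 alone, and the 26 raised ones became 17 against hsp104. The 14 lowered exon probes became 9 with no replicate block, 9 against hsp104, 5 with centring on exon and intronless probes, 8 with centring on all probes, 8 at an adjusted p under 0.01 and 6 to 9 with 1 array per mutant. The 4 raised exon probes became 16 when arrays were weighted this way, 1 against hsp104, 6 in the deletion strains alone, 11 with centring on exon and intronless probes, 1 with spot pair 1 alone and 2 with either array alone. The difference between RPL42B and RPL42A with 1 array per mutant was lowered in 3 to 4 mutants and raised in 0 to 1, and in mud13 it was −0.83 or 0.0024. With no replicate block it was lowered in 6 mutants and raised in 1. The cause of these changes was not tested, beyond the fewer arrays where 1 per mutant was used. In the fits with 1 array per mutant, the spread was estimated without replicate arrays of that mutant.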
